A study of Rattus norvegicus with 8 samples.

Results

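The loaded control is the medial collateral ligament of the knee of rats that had sham surgery and went on bearing weight, and its transcript signals are described here from 2 of the 8 arrays of the study, chosen by their titles. On these arrays, 8740 of the 8799 probe sets were ranked by their mean signal on both arrays, with the array's 59 control probe sets left out. The study asked how unloading of the hind legs alters the healing of this ligament. The other groups, also of 2 arrays each, were loaded healing (the ligament disrupted on both sides, weight bearing), unloaded control (hindlimb unloading by tail suspension, with no sham surgery) and unloaded healing (ligament disrupted on both sides, unloading begun 24 h after surgery). All ligaments were taken after 3 weeks, and total RNA was measured. The labels give no strain, sex or age, and nothing in them tells if 2 arrays of a group stand for 2 animals, for pools or for 1 sample measured again, so every spread below, and every SE and p-value, may be technical.

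A ligament is a band of parallel collagen fibrils laid down by fibroblasts. Type I collagen makes up most of the fibrils, type III and type V collagen take part in building them, and small leucine-rich proteoglycans such as decorin, biglycan and fibromodulin bind to their surface and govern their width. Fibroblasts that secrete matrix need ribosomes for protein synthesis and mitochondria for energy, and a dissected knee ligament can carry vessels, nerve, fat, synovium and muscle fibres with it.

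A probe set reads 1 transcript or several related ones through short probes that bind with different strength. The order of signals is therefore an order of brightness on this array and not of transcript number. A brighter gene or list need not hold more transcript than a dimmer one. Where a gene had several probe sets the brightest stood for it, which gave 4736 genes with 1 symbol, a median signal of 340.0 and a top decile of 473 genes (9.99%) that began at 1402.4.

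A small number of probe sets held much of the signal. The 10 brightest carried 20.9% of the summed mean signal, the 100 brightest 48.5% and the 1000 brightest 73.3%. The median probe set read 267.4, the 90th percentile 1315.0 and the 99th percentile 9243.9. The last of the 100 brightest read 8367.0 and the next one 8243.8, so that limit falls within a smooth slope. The 2 arrays were alike in this, with 48.8% and 48.4% of their signal in their own 100 brightest probe sets.

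The 2 arrays agreed closely at the top of the ranking and poorly in the middle. Of the 100 brightest probe sets of one array, 89 were among the 100 brightest of the other, and 24 of 25 were shared at the very top. Of the 100 with the highest mean, 92 differed by less than 1.5-fold and 66 by less than 1.2-fold, with 71 of them higher on loaded control 1. Over all 8740 probe sets only 49.3% lay within 1.5-fold and 10.9% lay more than 4-fold apart. Across probe sets, which are not independent replicates, Pearson's r of the log2 signals was 0.863 and Spearman's rho 0.803. Median signals were 238.7 on loaded control 1 and 280.1 on loaded control 2.

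The share of probe sets within 1.5-fold was 41.9% in the dimmest decile, fell to 34.4% in the fifth and rose to 83.0% in the brightest. On the log2 scale with an offset of 45.8 added, which compresses the dimmest signals, the standard deviation (SD) of the difference between the arrays was 1.10 in the fifth decile, 0.54 in the brightest decile and 0.31 among the 100 brightest. The same SD over all probe sets was 0.86 for loaded control, against 0.83, 0.75 and 0.89 for the pairs of loaded healing, unloaded control and unloaded healing. The loaded control pair was thus neither the closest nor the widest of the 4.

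**Figure D1:**
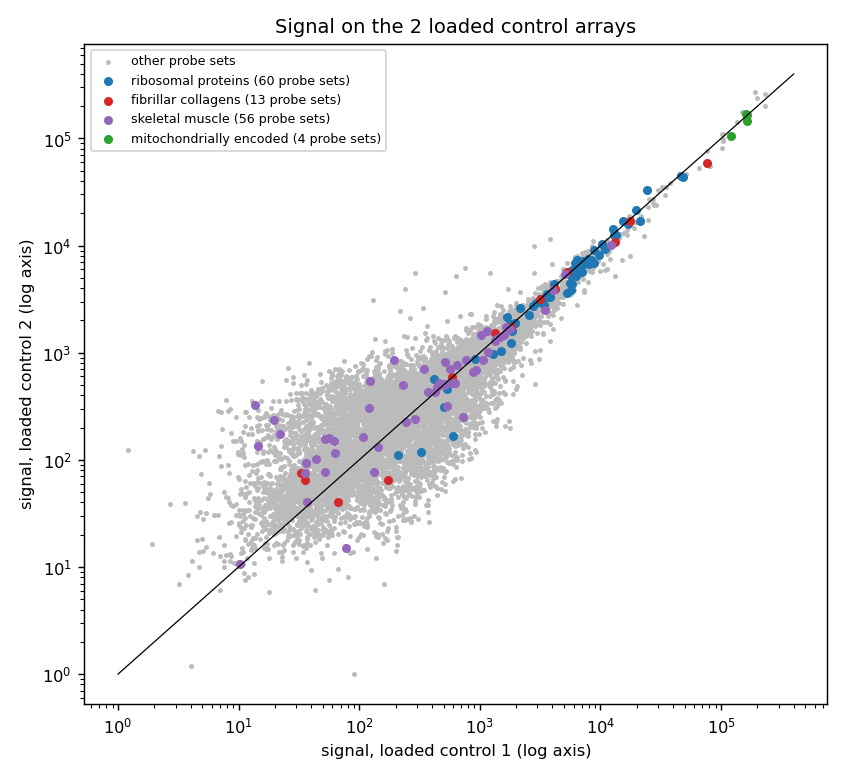
Signal of each ranked probe set on loaded control 1 (horizontal, log axis) and loaded control 2 (vertical, log axis), with 4 gene lists coloured and the line of equal signal in black. Mitochondrially encoded probe sets, and the brighter collagen and ribosomal ones, lie near the line, and the cloud is widest at intermediate signals.

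**Figure D2:**
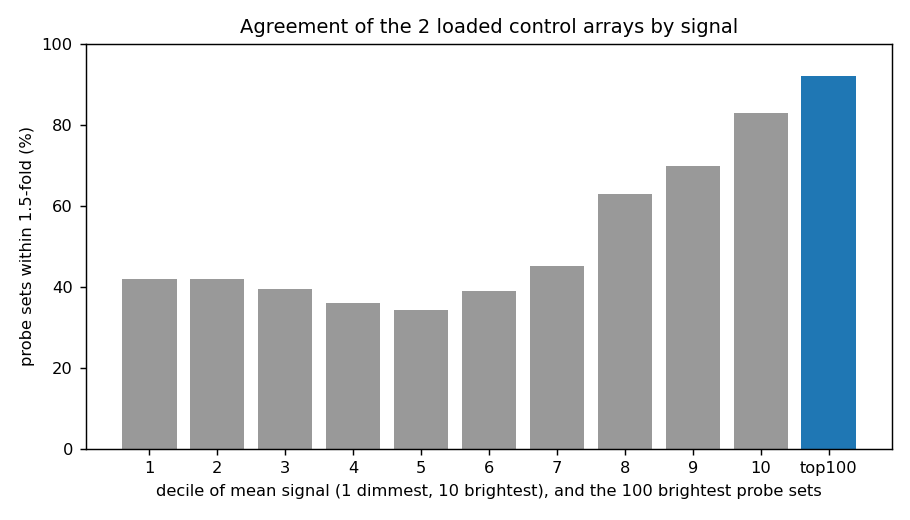
Percentage of probe sets whose 2 loaded control signals lie within 1.5-fold (vertical), by decile of mean signal and for the 100 brightest (horizontal). The share is lowest in the fifth decile, at 34.4%, and reaches 92.0% among the 100 brightest.

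The brightest named genes of the loaded control ligament were those of the mitochondrial genome. COX3, subunit III of cytochrome c oxidase, read 161918 on loaded control 1 and 169765 on loaded control 2. COX1, the catalytic subunit I of the same enzyme, read 164214 and 166801. COX2, which here means the mitochondrial subunit II and not the prostaglandin synthase, read 120643 and 104753. All 3 genes held nearly the same place on both arrays, and together their probe sets carried 6.62% of the summed signal. The next named gene in brightness, Oaz2, read 103725 and 98534.

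Nuclear genes of the respiratory chain, ATP synthase and citrate cycle were spread more widely. Of 41 measured, 9 were in the top decile and 28 were above the median gene. Cox8a, a small subunit of cytochrome c oxidase, read 14115 and 12262. Cox4i1, a larger regulatory subunit, read 6198 and 7762, and Atp5f1e, of the ATP synthase, read 3319.6 and 3522.7. The 3 genes differed between the arrays by less than 1.5-fold.

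Fibrillar collagens, some matrix glycoproteins and small proteoglycans were among the brighter genes, led by type I collagen. Col1a1, which encodes the alpha 1 chain, read 75949 on loaded control 1 and 59573 on loaded control 2. Col1a2, the alpha 2 chain, read 13164 and 10799. Both chains were brighter on loaded control 1, by less than 1.5-fold. Col3a1, of type III collagen, read 3172 and 3208, and Col5a1, of type V collagen, read 1821 and 1751. These 4 were the fibrillar collagen genes in the top decile of 7 measured, and the other 3 included genes well below the median gene, with the lowest at 53.8. Of 6 other collagens 0 reached the top decile, with Col10a1 highest at 1219 and 1131.

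Sparc, also called osteonectin, a secreted glycoprotein that binds collagen, was the brightest of 23 matrix glycoproteins. It read 37960.1 on loaded control 1 and 38169.5 on loaded control 2, a difference of 1.01-fold. Of that list 8 genes were in the top decile, among them Mgp, the matrix Gla protein that inhibits calcification (3529 and 2647), and Fn1, fibronectin (2209 and 2244).

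Among 19 proteoglycans, 4 were in the top decile. Bgn, biglycan, read 8014 and 6697. Dcn, decorin, read 5285 and 3470.4. Sdc4, a cell surface heparan sulphate proteoglycan of focal adhesions, read 4904 and 3291, and Fmod, fibromodulin, read 2879 and 2624. All 4 were brighter on loaded control 1. Lum, lumican, a relative of decorin, lay outside the top decile at 865.5 and 826.3.

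Genes that process or turn over collagen were lower in the ranking. Lox, the lysyl oxidase that starts cross-linking of collagen, was the 1 member of 13 collagen processing genes in the top decile (1645 and 1961). Of 29 matrix proteases and inhibitors 4 were in the top decile, and these were the inhibitors A2m (2878 and 2509), Cst3 (2211 and 2535), Timp2 (2189 and 2049) and Timp1 (1665 and 1527).

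Fibroblast genes of tendon and ligament were read next. The markers were chosen with earlier results of these data known, and some, such as Col1a1 and Dcn, were named above. They are thus no independent check of the tissue label. Of 10 markers, 7 had a probe set and all 7 were in the top decile. They included Comp, a glycoprotein that assists fibril assembly (1859.8 and 2505.5), Thbs4, thrombospondin 4 (1544 and 1504), and Tnc, tenascin C (1457 and 2312). Scx, Mkx and Tnmd, the transcription factors and membrane protein that define these fibroblasts most closely, had no probe set with 1 symbol and were not measured here.

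Ribosomal protein genes formed the broadest bright group. Of 41 measured, 34 were in the top decile and 39 above the median gene, with a median signal of 6816.6 against 340.0 for all genes, and their probe sets carried 4.97% of the summed signal. Rps29, of the small subunit, read 46149 and 44235. Rpl27a, of the large subunit, read 19872 and 21429, and Rplp0, of the ribosomal stalk, read 17082 and 15778. The arrays differed by less than 1.5-fold for 37 of the 41 genes. At the other end Rpl5 read 324.6 and 117.4. Many ribosomal protein genes have near-identical pseudogenes, so signals of single members, Rpl19l4 (48305 and 43584) among them, may include copies.

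Among 12 translation factors, 5 were in the top decile. Eef2, the elongation factor that moves the ribosome along, read 10913 and 10394, and Eef1a1, which delivers aminoacyl tRNA, read 9546 and 7249.5.

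The 250 bases before the RefSeq start (assembly GRCr8) are printed for 3 of these genes, a collagen chain, Sparc and a ribosomal protein, because they are among the brightest named genes and differ in the motifs they hold. Capitals mark matches, on either strand, to the TATA box letters TATAAA, to the CCAAT box and to the GC box letters GGGCGG, and each line runs from 5′ to 3′ on the gene's strand. The windows are chr4:33518307-33518556 (+) for Col1a2, chr10:40038817-40039066 (−) for Sparc and chr12:46718391-46718640 (−) for Rplp0.
Col1a2: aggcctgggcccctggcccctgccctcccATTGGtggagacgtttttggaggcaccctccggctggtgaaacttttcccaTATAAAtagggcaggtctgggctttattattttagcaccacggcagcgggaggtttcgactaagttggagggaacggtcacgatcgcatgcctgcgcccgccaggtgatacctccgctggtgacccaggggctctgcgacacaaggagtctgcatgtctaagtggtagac
Sparc: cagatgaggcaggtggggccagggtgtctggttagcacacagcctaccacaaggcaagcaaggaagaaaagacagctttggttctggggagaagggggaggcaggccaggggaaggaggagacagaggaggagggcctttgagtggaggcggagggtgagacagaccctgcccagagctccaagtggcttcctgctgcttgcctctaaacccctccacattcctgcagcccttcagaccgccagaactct
Rplp0: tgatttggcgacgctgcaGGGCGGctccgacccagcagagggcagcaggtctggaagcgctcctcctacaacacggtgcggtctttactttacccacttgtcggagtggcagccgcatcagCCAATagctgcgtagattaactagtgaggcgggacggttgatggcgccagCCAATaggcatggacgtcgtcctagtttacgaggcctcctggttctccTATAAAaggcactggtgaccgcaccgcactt
The Col1a2 window held 1 TATAAA and 1 CCAAT, the Rplp0 window 1 TATAAA, 2 CCAAT and 1 GGGCGG, and the Sparc window none of the 3. In windows of 300 bases, 250 before and 50 after the start, 11.2% of 3871 genes of the ranking held TATAAA, 38.3% CCAAT and 56.2% GGGCGG. Of 34 ribosomal protein genes in the top decile 30 had a window, and 3 held TATAAA, 6 CCAAT and 20 GGGCGG. For matrix genes in the top decile the same check is void, since 9 of 16 had a window. A match is a description of letters and not of a binding site.

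**Figure D3:**
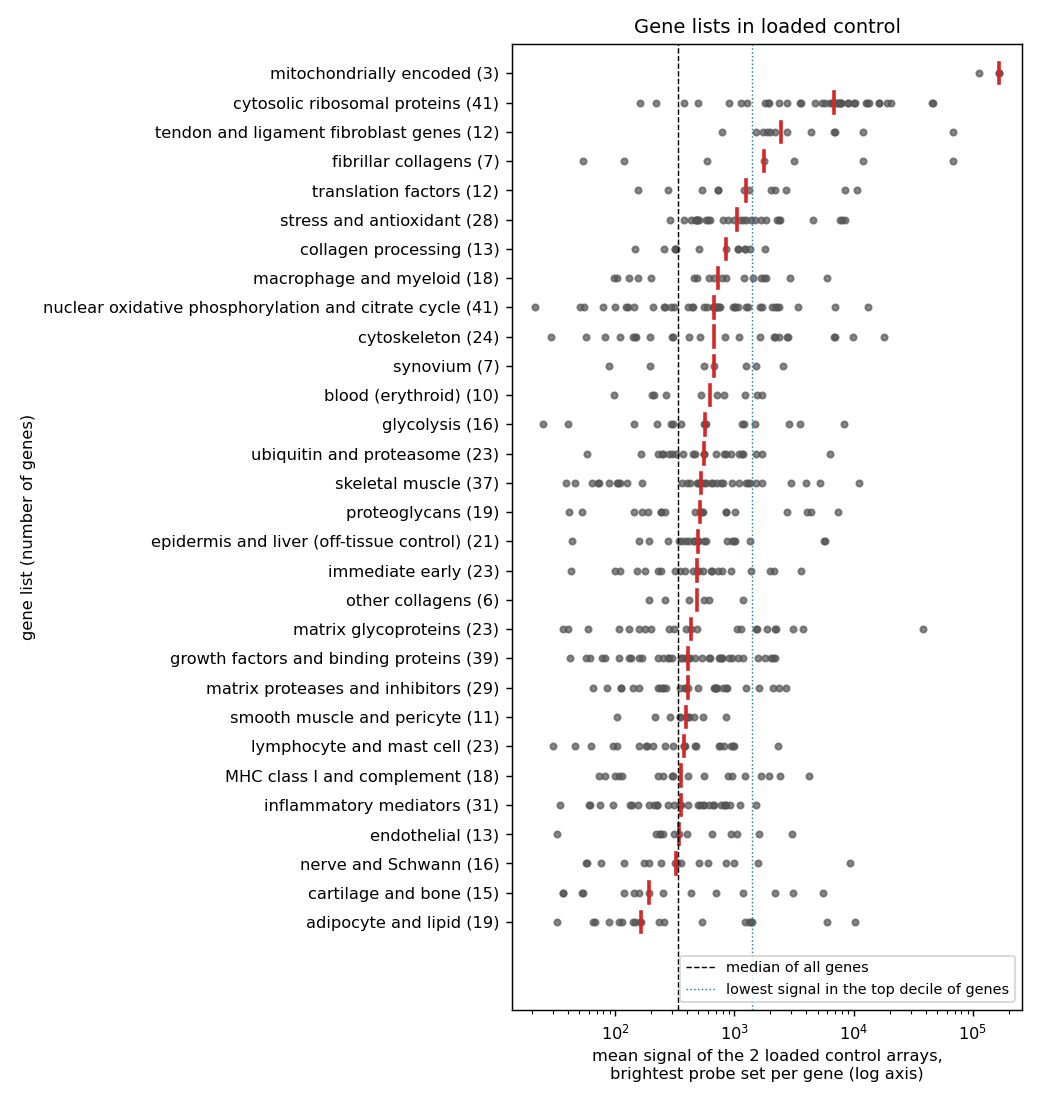
Mean signal of both loaded control arrays (horizontal, log axis) for every measured gene of 30 lists (rows, number of genes in parentheses), with the list median in red, the median of all genes dashed and the start of the top decile dotted. Mitochondrially encoded, ribosomal and ligament fibroblast genes lie furthest to the right, and adipocyte and cartilage genes have the lowest medians.

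Cytoskeletal genes followed, with 10 of 24 in the top decile. Tmsb4x, thymosin beta 4, which holds actin monomers, read 17164 and 18711. Actb, beta actin, read 8651.5 and 11113. Tuba1b, an alpha tubulin, read 7674 and 6162.5, and Vim, vimentin, the intermediate filament protein of fibroblasts, read 6735 and 6930.5. Each differed by less than 1.5-fold between the arrays.

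Of 37 skeletal muscle genes measured, 6 were in the top decile and 26 above the median gene. Of 21 genes of other organs, a negative control list, 2 were in the top decile and 17 above the median gene, so a place above the median does not set muscle genes apart. Tpm1, a tropomyosin that is also made outside muscle, read 12161 and 10096 on the brightest of its 5 probe sets. The others had means of 1710.2, 1352.4, 428.7 and 212.2. Myh3, the embryonic fast myosin heavy chain, read 5104 and 5374, and Myh4, the fast type IIB chain, read 3443.5 and 2492. Of 8 defining markers, 8 read above every bacterial control probe set (highest mean 277.7), and 1 was in the top decile. All 3 liver markers also read above them, and on loaded control 2 a bacterial control read 438.7, above the fast troponin Tnnt3 at 428.1. Acta1, skeletal actin, read 1164 and 1026, and Ckm, muscle creatine kinase, 1146 and 1582. The summed signal of the 8 markers was 8757 and 7966 in loaded control, 15092 and 11459 in loaded healing, 3852 and 4581 in unloaded control and 11201 and 10283 in unloaded healing. In bulk tissue more cells of a type and more RNA per cell cannot be told apart. Smooth muscle genes were dimmer: 0 of 11 genes were in the top decile, and Acta2 read 800.0 and 899.1.

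Of 10 red cell genes measured, 2 were in the top decile and 4 differed by less than 1.5-fold between the arrays, as did 2429 of all 4736 genes. These 2 were Slc4a1, the band 3 anion exchanger (2139 and 1287), and the globin gene Hbe2. Alas2, the first enzyme of haem synthesis in red cells, lay outside the top decile at 1900.1 and 541.6. The beta globin Hbb read 850.4 and 585.5. The alpha globins Hba1 and Hba-a2 had no probe set with 1 symbol.

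Macrophage and myeloid genes were moderately bright, with 6 of 18 in the top decile. Apoe, the lipid carrier apolipoprotein E, read 6287 and 5667, and Psap, the precursor of lysosomal activator proteins, read 3150.5 and 2747. Lyz2, lysozyme, read 2144 and 1392. RT1-Da, a class II antigen presentation gene, read 2055 and 1621. Csf1r, the receptor that defines macrophages, read 99.8 and 95.2, below the highest bacterial control. In the class I and complement list 4 of 18 were in the top decile, with B2m, the light chain of class I molecules, at 2012 and 1854.5.

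Lymphocyte, mast cell and inflammatory genes were near the middle of the ranking. Of 23 lymphocyte and mast cell genes 1 was in the top decile, the mast cell tryptase Tpsb2 (2549 and 2091). Of 31 inflammatory mediators 1 was in the top decile, the chemokine Cx3cl1 (1577 and 1473). Cd3g read 744.9 and 731.8, whereas Cd4 (757.4 and 193.3) and Cd8a (624.2 and 134.8) differed between the arrays by more than 2-fold.

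Markers of other tissues near the ligament were mixed. In the cartilage and bone list 3 of 15 genes were in the top decile, led by Alpl, the tissue-nonspecific alkaline phosphatase (6511 and 4572). In the synovium list 2 of 7 were, led by Ugdh, which makes a precursor of hyaluronan (2377 and 2688.5). The nerve and Schwann list had 2 of 16, led by Ngfr, a neurotrophin receptor (8467 and 9999). Another probe set of Ngfr read 1341.7 and 652.2. The adipocyte and lipid list had 3 of 19, led by Lep (11691 and 8952). These lists overlap with those above. Mgp and Comp, counted here for cartilage and bone, were also named for matrix and ligament fibroblasts. Apoe, counted here for adipocytes, was also named for macrophages. By contrast, the cartilage genes Acan (52.3 and 53.4), Col2a1 (172.1 and 64.6) and Col9a1 (137.1 and 248.5) and the bone genes Bglap (137.0 and 180.5) and Ibsp (25.9 and 47.8) had means below the highest bacterial control. So did Has2, the hyaluronan synthase of synovium (106.7 and 71.1), and the fat cell genes Fabp4 (45.6 and 20.1) and Plin1 (54.8 and 123.0). Prg4, lubricin, and Adipoq, adiponectin, had no probe set with 1 symbol. Of 13 endothelial genes 2 were in the top decile, and the list median was 341.2 against 340.0 for all genes. Thbd, thrombomodulin, read 3053 and 3036, while Kdr, a receptor for vascular endothelial growth factor, read 130.9 on loaded control 1 and 3104.5 on loaded control 2. Of 4 endothelial markers measured, 3 had means above the highest bacterial control, among them Pecam1 (144.4 and 538.1), and Vwf (225.3 and 247.7) did not.

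Stress and antioxidant genes were frequent in the top decile, at 10 of 28. Gpx3, a secreted glutathione peroxidase, read 8689.7 and 8128, Sod1, the cytosolic superoxide dismutase, read 7611 and 8291, and Hspb1, a small heat shock protein, read 8141 and 7115. Immediate early genes had 3 of 23 in the top decile, with Fos at 3664 and 3541. Glycolysis had 4 of 16, with Pgam1, phosphoglycerate mutase, at 9092 and 7396. Growth factors and their binding proteins had 5 of 39, with Tgfb3, a transforming growth factor, at 2536 and 1805, and Igfbp6, an inhibitor of insulin-like growth factor action, at 2020.5 and 1997.

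Many of the brightest probe sets carry no gene name and so belong to none of these lists. Of the 100 brightest, 43 had no symbol in the probe table and 15 had several, against 1426 and 308 of all 8740. The unnamed ones carried 30.8% of the summed signal. The probe set J01435cds#4_s_at was brightest of all, at 232154 and 260478, and M13100cds#1_at read 163520.3 and 166042. Of the 100, 7 probe sets were drawn from the sequence record M13100, 3 from X05472 and 3 from J01435. The probe table names none of them.

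Probe sets that can bind several transcripts were frequent at the top. The suffix _s_at, given to probe sets shared by several transcripts, marked 38 of the 100 brightest and 16.8% of all. The suffix _f_at, for probe sets whose probes match a family of similar sequences, marked 15 of the 100 and 2.2% of all.

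Some bright signals were not borne out by a gene's other probe sets. Of 25 genes with several probe sets and 1 in the 100 brightest, 16 had another probe set outside the top decile of probe sets and 7 had one below the median. Fabp6, the bile acid binding protein of the small intestine, read 35180.1 and 34924 on one probe set and 35.2 and 74.1 on another. Crp, the C-reactive protein made by the liver, read 27243 and 24997 on the brightest and 392.8 and 361.2 on the dimmest. Lep, the fat cell hormone leptin, read 11691 and 8952 on one and 216.0 and 315.3 on another. For these 3 genes the signal depends on which probe set is read. Collagen, ribosomal and translation genes varied too. The dimmest probe set of Col1a1 read 4230.3 and 3953 and that of Rps29 24356 and 32996, but that of Rps15, a small subunit protein, read 413.6 and 566.0 against 21381 and 16835.5 on its brightest. The means of Eef2 and Eef1a1 were 10.2 and 8.7 times as high on the brightest as on the dimmest. Sparc read 522.2 and 396.7 on its dimmest. Genes named above from outside the 100 brightest varied as well. The dimmest probe sets of Fn1, Lox, Timp1, Tnc and Myh3 had means of 83.8, 95.2, 89.6, 51.6 and 104.2. These means, and those of the dimmest probe sets of A2m, Acta2 (14.0), Psap (243.6) and Cx3cl1 (223.8), were below the highest bacterial control. Those of Bgn (950.8), Dcn (875.4), Fmod (523.6) and Cst3 (422.4) were above it. The genes given here are examples, and the signals printed for such genes are those of the brightest probe set only.

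In the negative control list of genes of other organs, the 2 in the top decile were the insulin genes Ins2 (5789 and 5769) and Ins1 (7372 and 3835). Its median signal, 495.8, was above that of all genes, 340.0. Signals of list members near or below that median are thus no higher than those of genes not known from ligament.

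A few of the 100 brightest probe sets differed more between the arrays. Ptms, parathymosin, read 13078 and 5202, a 2.51-fold difference. Rara, the retinoic acid receptor alpha, read 17554.5 and 7916, and Pdyn, the opioid precursor prodynorphin, 11275 and 5988. The dimmest probe sets of these 3 genes read 124.1 and 49.1, 52.6 and 33.8, and 353.7 and 258.9.

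The same 100 probe sets were read on the other 6 arrays to show where loaded control differs. The rule picked them for high signal in loaded control, so their differences from it lean towards falls. Their median signal ratio to loaded control was 0.83 in loaded healing, 1.04 in unloaded healing and 0.16 in unloaded control. The 100 brightest probe sets of those groups held 75, 85 and 46 of them. The unloaded control arrays stood apart, and 56 of the 100 read below 0.25 of loaded control there. The actin 5′/3′ ratio, a sign of RNA integrity, is higher when more of the signal comes from the 5′ end. It was 0.96 and 0.63 in unloaded control, 0.36 and 0.39 in loaded control, and 0.24 to 0.53 over all arrays outside unloaded control. Actin itself was dimmer in unloaded control, with Actb at 566.9 and 537.8 against 8651.5 and 11113 in loaded control. The Gapdh 5′/3′ ratio, at 0.95 and 0.71 against 0.73 to 0.90, did not set the unloaded control arrays apart in the same way. The part of RNA quality in the differences was not tested, and unloading and the lack of sham surgery cannot be told apart.

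**Figure D4:**
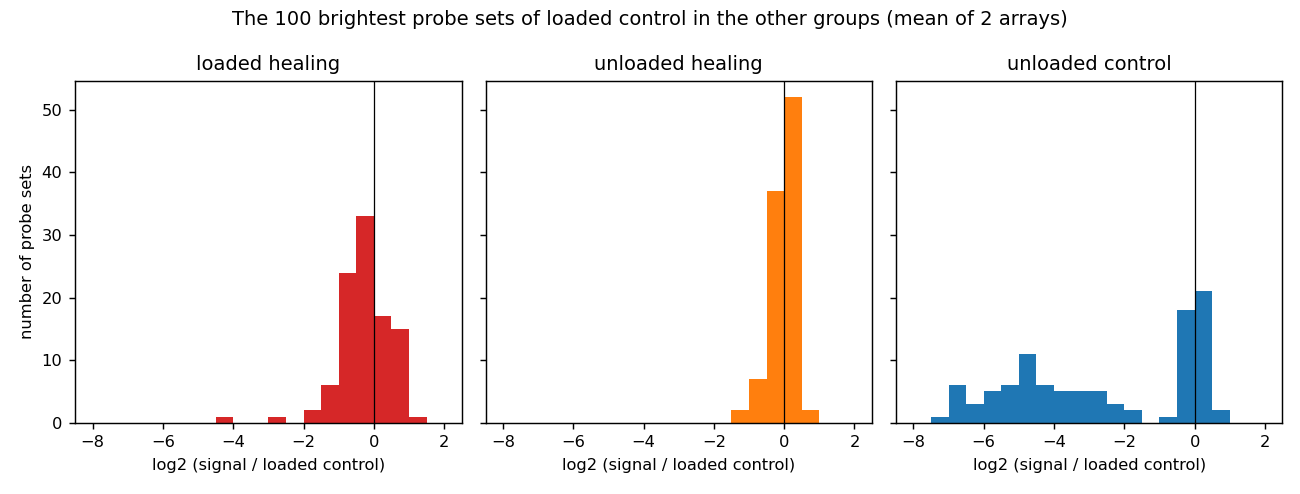
Histograms of the log2 ratio of mean signal to loaded control (horizontal) for the 100 brightest probe sets of loaded control, in the 3 other groups (mean of 2 arrays each, number of probe sets vertical). Both healing groups centre near 0, at median ratios of 0.83 and 1.04, and unloaded control divides into probe sets near 0 and probe sets far below it.

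In unloaded control the bright probe sets divided in part by kind. All 4 mitochondrially encoded and all 3 fibrillar collagen probe sets among the 100, and 12 of 14 ribosomal ones, read below 0.25 of their loaded control signal. In contrast, 10 of 11 probe sets with 1 symbol that were in no list, all but that of Oaz2 (4799 and 3864), read at least 0.5 of it. So did 13 of 15 with the suffix _f_at, and 42 of all 100. Of 31 probe sets of list genes 7 also did. Of the 43 unnamed ones 21 did and 21 read below 0.25. Fabp6 read 37570.0 and 39856 and Crp 29476.5 and 28004 in unloaded control, while Col1a1 read 699.0 and 763.1 and Rps29 1903 and 1828.

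**Figure D5:**
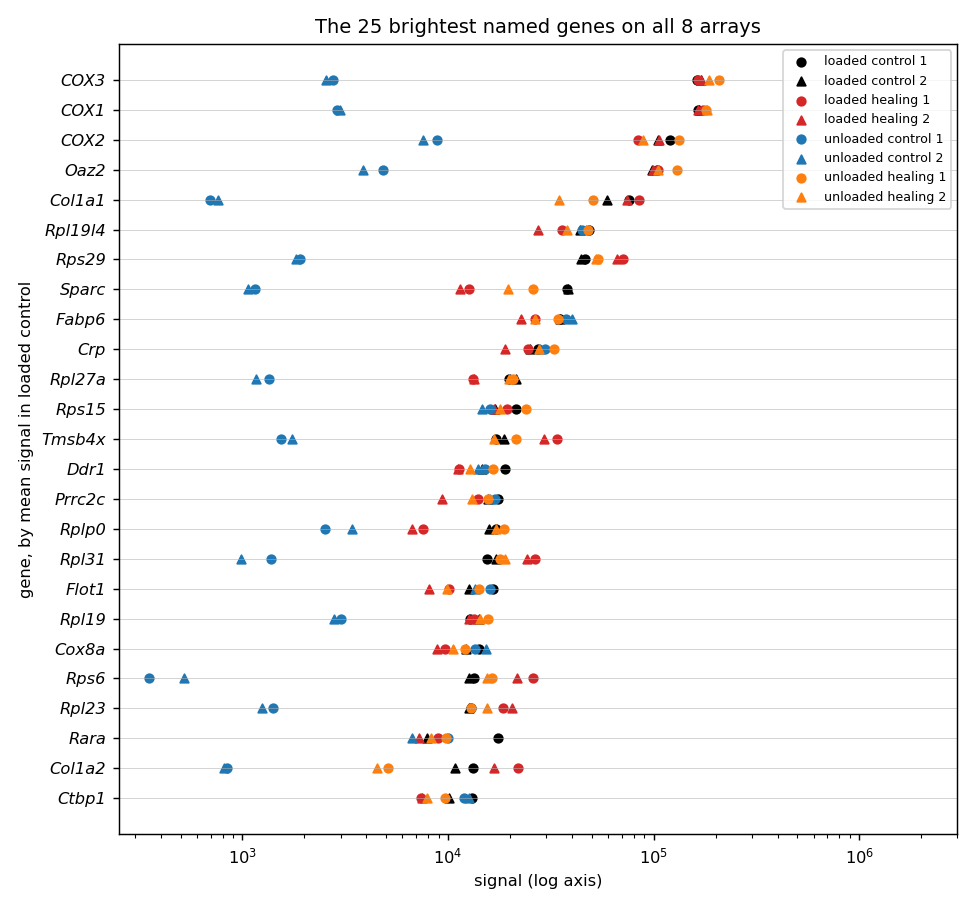
Signal (horizontal, log axis) of the 25 brightest named genes of loaded control (rows, in order of mean signal) on all 8 arrays, with circles for array 1 and triangles for array 2 of each group. Unloaded control (blue) lies far to the left for COX3, COX1, Col1a1, Sparc, Rps29 and Tmsb4x, and among the other groups for Fabp6, Crp, Ddr1, Prrc2c, Flot1 and Ctbp1.

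Against loaded control, limma with Benjamini-Hochberg adjustment over 5244 probe sets called 15 of the 100 in loaded healing, 4 higher and 11 lower. Over all probe sets it called 106 (2.02%), 54 higher (1.03%) and 52 lower (0.992%). Because the 100 were picked for high signal on the same loaded control arrays, their calls lean towards falls. The shares of all probe sets carry no such choice, in this contrast and the next 2. Sparc fell in loaded healing, from 37960.1 and 38169.5 to 12677 and 11370.4, with no overlap (log2 change −1.66 ± 0.17 SE, limma adjusted p = 0.00121). Rplp0 fell from 17082 and 15778 to 7572 and 6653 (−1.20 ± 0.18, limma adjusted p = 0.00807), but scaled to hybridisation controls the change was −0.80 with an adjusted p of 0.180. Tmsb4x rose from 17164 and 18711 to 33678 and 29109 (0.80 ± 0.17, limma adjusted p = 0.0492). Just outside the 100, Bgn fell from 8014 and 6697 to 3379 and 2286 (−1.38 ± 0.25, limma adjusted p = 0.0232), and Comp, further down, from 1859.8 and 2505.5 to 223.2 and 360.8 (−2.74 ± 0.45, limma adjusted p = 0.0134). On their brightest probe sets both chains of type I collagen missed the threshold: Col1a1 read 84666 and 73916, and Col1a2 21950.2 and 16673. The direction of Col1a1 depends on the probe set, with log2 changes of 0.23, −0.13, −1.41 and −1.21 on its 4, of which the third passed (Z78279_at, limma adjusted p = 0.0122). Sparc likewise read −1.22 (limma adjusted p = 0.0414) and 0.11 on 2 further probe sets. The summed signal of the 4 macrophage markers measured was 4334 and 3961 on the loaded control arrays and 18230 and 16298 on those of loaded healing, and its part in these falls was not tested. With loaded control 1 left out the count of 106 was 37, and with loaded control 2 left out it was 32. Leaving out loaded healing 1 gave 27 and leaving out loaded healing 2 gave 36. Of the 100 brightest, the 15 calls became 6, 6, 6 and 5 in the same order, and 2 when the variance prior ignored intensity. The call for Sparc was lost with a variance prior that ignores intensity (adjusted p = 0.0744), and those for Tmsb4x, Bgn, Rplp0 and Comp were lost under 8, 7, 6 and 4 of 14 alternatives.

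In unloaded healing limma called 0 of the 100, and 4 of 5244 probe sets (0.0763%), 3 higher (0.0572%) and 1 lower (0.0191%); 291 of the 5244 had an unadjusted p under 0.05. Sparc read 25748 and 19466.5, Col1a1 50509.5 and 34753, and Col1a2 5118 and 4489.8 there, each below both loaded control arrays without passing. COX3 read 208176 and 185970.5, above both. The 4 calls became 0 without loaded control 1, loaded control 2 or unloaded healing 2, 1 without either array of loaded healing or unloaded control, and 6 without unloaded healing 1.

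In unloaded control limma called 59 of the 100, 1 higher and 58 lower, against 357 of all 5244 (6.81%), 31 higher (0.591%) and 326 lower (6.22%). All 3 mitochondrially encoded genes fell, COX3 the furthest (log2 change −5.95 ± 0.14, limma adjusted p = 1.9e-09). Of 41 ribosomal protein genes 39 were tested and 32 fell, with a median log2 change of −3.18 against 0.23 for all probe sets tested. Each list gene was read on its probe set brightest in loaded control, so list counts and medians lean towards falls. The 0.23 carries no such choice. Of 12 ligament fibroblast genes 9 fell, of 7 fibrillar collagens 5 were tested and 4 fell, and in none of these lists did a gene rise. Col1a1 fell on all 4 of its probe sets, with log2 changes of −6.44 on the brightest (SE 0.20, limma adjusted p = 1.19e-08) and −3.19, −1.38 and −2.75 on the others. The fall also passed for Rps6, a small subunit protein, from 13343.5 and 12633 to 350.2 and 517.4 (limma adjusted p = 7.72e-08). With quantile normalization 591 were called, 206 higher and 385 lower, and 95 of the 100 were.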

How the data were processed

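Per the labels, total RNA of rat medial collateral ligament was measured on 8 arrays, 2 in each of 4 groups taken from the titles. Each deposited value is the signal intensity of a probe set on a linear scale. The authors had brought the arrays to a common level, as their trimmed means (2%) ran from 500.3 to 500.6. How the probes were summarised is not given in the sources used here. Of the 8740 ranked probe sets, 7006 had 1 symbol in the array's probe table, and 6994 of these were matched by identifier to RefSeq (GRCr8), which changed 0 symbols.

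Levels and ranks are the deposited signals, with no test, because they define the ranking. Differences were tested with limma 3.58.1 in R 4.3.3 on log2 (signal + 45.8), the offset being the 10th percentile of all values, without the dimmest 40% of probe sets by mean log2 signal. All 8 arrays entered 1 model with 4 group means (4 residual and 5.81 prior degrees of freedom, variance prior following intensity). Tests were two-sided, adjusted by Benjamini-Hochberg at 0.05, and the model was tested on simulated data. The 3 contrasts share the loaded control arrays. Adding the offset shrinks changes at low signal, and 2 arrays a group limit the precision.

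The gene lists and tests were chosen with earlier results of these data known. Named genes were drawn from the 25 brightest, up to 4 per list and the markers of cell types. They were also drawn from the least agreeing of the 100 brightest, the largest called changes among those and the genes whose probe sets differ most. Low or dim members named as counterexamples were chosen after their values were seen. The alternatives were other averages of the arrays, quantile normalization, scaling to hybridisation controls, a larger offset, no filter, a variance prior without trend, a replicate block, and leaving out each array.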

Additional observations from a re-analysis of the deposited data

How the results depend on the processing

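The share of summed signal in the 100 brightest probe sets, 48.5%, was 49.3% with a geometric mean, 51.9% with the lower of both signals, 45.4% after quantile normalization and 48.4% to 48.8% with 1 array left out. The SD of the log2 difference between the arrays was 0.57 with an offset 4 times as large, which compresses dim signals more. Against 106 calls in loaded healing, limma gave 70 without a filter, 29 without the trend, and 27 to 94 with 1 array left out; scaled to the hybridisation controls the count was the same, but the split was 84 higher and 22 lower in place of 54 and 52, and the median of all probe sets moved from −0.03 to 0.34. Against 4 calls in unloaded healing it gave 1 with that scaling, 1 without a filter, 0 without the trend and 0 to 6 with 1 array left out. Against 357 in unloaded control it gave 591 after quantile normalization (206 higher and 385 lower, against 31 and 326). Without unloaded healing 1 the 6 calls of unloaded healing were 1 higher and 5 lower, against 3 and 1, and the median of all probe sets there moved from 0.01 to −0.07 with hybridisation control scaling. Of the 16 probe sets followed through the alternatives, 0 changed sign where a call was made. The cause of these shifts was not tested.

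With replicate number as a block, the calls were 123, 7 and 393 in loaded healing, unloaded healing and unloaded control. The differences between arrays 1 and 2 correlated over probe sets at 0.20 between loaded control and loaded healing, 0.18 between loaded control and unloaded healing, 0.16 between both healing groups and 0.00 to 0.01 in the pairs with unloaded control, and the labels do not say that a number marks a shared animal or batch. With 2 numbers the numbers were not taken to pair the arrays, though the correlations of the other 3 groups are a hint, from the data and not the design, that they could. Under quantile normalization and the replicate block, Col1a2 passed in unloaded healing (limma adjusted p = 0.0258 and 0.0188). Signals below the highest bacterial control cannot be told from background, and 4265 of 8740 ranked probe sets (48.8%) had a mean above it.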

Other observations

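A few bright probe sets differed between the 2 loaded control arrays far more than others of like brightness. Most of those higher on array 2 differed the same way in both healing groups. Of 1223 probe sets with a mean signal of at least 1000 in loaded control, 11 were more than 4-fold higher on array 2 than on array 1. Of these 11, 10 were also more than 4-fold higher on array 2 in loaded healing and 8 in unloaded healing, where 1.2% and 0.9% of the 1223 were; in unloaded control it was 0. Of the 4 that were more than 4-fold higher on array 1, 0 repeated in any other group. Without the limit on mean signal, 660 of 8740 probe sets were more than 4-fold higher on array 2. Of these, 19.1% repeated in loaded healing, 18.5% in unloaded healing and 8.0% in unloaded control. The shares of all 8740 were 6.9%, 6.8% and 3.2%. Of 289 higher on array 1, 7.3%, 8.3% and 6.9% repeated in the same order, against 3.0%, 4.5% and 3.6%. The genes were picked after their values were seen.

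Kdr, a receptor for vascular endothelial growth factor, read 130.9 and 3104.5 in loaded control, 256.9 and 3450.2 in loaded healing, 244.7 and 3545.9 in unloaded healing, and 2647 and 3724 in unloaded control. Apob, the apolipoprotein of liver and gut lipoproteins, read 241.2 and 3956, 327.4 and 3572, 354.8 and 3188, and 2248 and 3198 in the same order. Cdo1, which oxidises cysteine, read 289.3 and 5586, 196.5 and 3858.5, 602.6 and 3361, and 3491 and 4373. Gadd45a, a growth arrest gene, read 335.2 and 2618, 329.0 and 2602, 430.9 and 2455, and 1669 and 1989 on one of its probe sets. Array 1 was low in loaded control, loaded healing and unloaded healing for all 4 genes, and both unloaded control arrays were high. The labels give no batch, and what the arrays numbered 1 share was not tested. A mean over the loaded control arrays does not describe these genes, and Kdr is the one that counted in a list above: without array 2 the endothelial genes in the top decile were 1 in place of 2.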
